A study of Mus musculus with 9 samples.

Results

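The 5 enzymes that break tyrosine down to fumarate and acetoacetate, encoded by Tat, Hpd, Hgd, Gstz1 and Fah, were followed in liver RNA on 9 Affymetrix Mouse Gene 1.0 ST arrays. They were chosen by name, as the consecutive steps of the pathway, with earlier results of these data known. They are 5 of the 19938 genes measured. Each is read by 1 probe set that the platform annotation pairs with that symbol and no other. The step that makes tyrosine from phenylalanine is not analysed here. The N-control group held wildtype C57BL/6J mice, and both other groups held ob/ob mice on the same background, which lack leptin and become obese with a fatty liver. OB-TUDCA mice received taurine-conjugated ursodeoxycholic acid (TUDCA), a bile acid, by gastric gavage at 500 mg/kg 2 times a day for 3 weeks, and the N-control and OB-control mice received tap water by the same route and schedule. All mice were males, 6 weeks old when bought, ate normal chow freely and were killed after 8 hours of fasting. Each group has 3 arrays, labelled as biological replicates, whereas the methods describe 6 mice per group. TUDCA was not given to wildtype mice in these data, so a difference between OB-TUDCA and N-control combines genotype and treatment, which cannot be told apart there.

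Most tyrosine that is not built into protein is degraded in hepatocytes. Tyrosine aminotransferase (Tat) removes the amino group, 4-hydroxyphenylpyruvate dioxygenase (Hpd) makes homogentisate, and homogentisate dioxygenase (Hgd) opens the aromatic ring. Maleylacetoacetate isomerase (Gstz1) and fumarylacetoacetate hydrolase (Fah) then lead to fumarate, which enters the citric acid cycle, and acetoacetate, a ketone body. Tat is a classical target of glucocorticoids and fasting signals. Inherited loss of Hgd causes alkaptonuria and inherited loss of Fah causes a tyrosinemia with severe liver disease, which is treated by a drug that blocks Hpd.

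Signals are given on the log2 scale, on which a difference of -1 is a halving, and a gene was called changed at an adjusted p under 0.05 in limma over all 19938 genes. Fah, the last enzyme, fell by 0.53 from N-control to OB-TUDCA, and it was the only one of the 5 called in any comparison. From OB-control to OB-TUDCA, Hgd, Gstz1 and Fah had differences of -0.54, -0.30 and -0.39, none of which passed the adjusted threshold. Tat, the first enzyme, had a difference of 0.06 in the same comparison. Because the RNA came from whole liver, fewer hepatocytes and less RNA per hepatocyte cannot be told apart.

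The sequences around the transcription starts of Hpd, Hgd and Fah are shown because Hpd and Hgd varied together from array to array and Fah carried the call. Each runs from 250 bases before to 50 bases after the start, 5′ to 3′ on the strand of the gene, as given by RefSeq for mouse assembly GRCm38.p6. Hpd lies at chr5:123182674-123182973 on the minus strand, Hgd at chr16:37579903-37580202 on the plus strand and Fah at chr7:84605893-84606192 on the minus strand. Capitals mark every match, on either strand, to 8 short motifs: the TATA box TATAAA, the CCAAT box CCAAT, the GC box GGGCGG, the HNF1 hexamer GTTAAT, the C/EBP motif TTNNGCAA, the nuclear receptor hexamer AGGTCA, the glucocorticoid receptor hexamer TGTTCT and the E-box CACGTG.
Hpd: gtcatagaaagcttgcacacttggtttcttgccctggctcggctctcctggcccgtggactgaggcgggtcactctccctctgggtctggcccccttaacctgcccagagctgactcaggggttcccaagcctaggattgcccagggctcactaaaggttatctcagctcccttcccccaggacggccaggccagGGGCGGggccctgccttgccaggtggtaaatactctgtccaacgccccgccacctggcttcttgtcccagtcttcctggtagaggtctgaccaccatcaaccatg
Hgd: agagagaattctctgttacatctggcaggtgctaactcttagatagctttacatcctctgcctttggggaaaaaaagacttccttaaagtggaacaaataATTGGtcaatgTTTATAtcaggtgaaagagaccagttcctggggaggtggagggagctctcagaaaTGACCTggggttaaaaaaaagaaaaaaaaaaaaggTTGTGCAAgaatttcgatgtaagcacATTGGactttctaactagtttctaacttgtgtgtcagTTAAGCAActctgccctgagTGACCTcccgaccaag
Fah: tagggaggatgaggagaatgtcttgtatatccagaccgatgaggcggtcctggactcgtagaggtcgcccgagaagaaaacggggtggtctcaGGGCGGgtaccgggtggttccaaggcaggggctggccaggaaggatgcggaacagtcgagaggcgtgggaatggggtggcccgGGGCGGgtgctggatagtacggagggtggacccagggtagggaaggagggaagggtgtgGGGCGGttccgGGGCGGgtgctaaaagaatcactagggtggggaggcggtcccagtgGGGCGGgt

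The Fah window holds 5 GC boxes and no other motif of the search, with 64.3% G and C. The Hpd window holds 1 GC box, 55 bases before the start, and 61.3% G and C. The Hgd window differs in composition, with 41.0% G and C, and it holds 1 TATA box on the opposite strand, 2 CCAAT boxes, 2 C/EBP motifs and 2 nuclear receptor hexamers. Hpd and Hgd therefore shared none of the 8 motifs in these windows. The windows not printed hold 3 CCAAT boxes for Tat, and 1 CCAAT box and 1 GC box in each of the 2 windows listed for Gstz1. No window of the 5 genes has the HNF1 hexamer, the glucocorticoid receptor hexamer or the E-box, and no matches overlapped each other. Among all 32851 windows of the same length, 35.7% hold the GC box, 37.4% the CCAAT box, 13.6% the TATA box, 10.8% the C/EBP motif and 16.3% the nuclear receptor hexamer. The HNF1 hexamer is found in 7.10% of them, the glucocorticoid receptor hexamer in 19.0% and the E-box in 7.15%. A match is a description of the letters and not evidence of binding.

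The arrays were first checked against markers of liver cells. The mean signal of 6 hepatocyte markers lay between 12.47 and 12.67 on all 9 arrays. N-control replicate 2 stands apart, with a mean signal of 10.9 over 11 pancreatic acinar markers against 3.99 to 4.55 on the other 8 arrays, so the differences from N-control are also given without it. The hepatocyte mean was 12.47 to 12.56 in OB-control and 12.62 to 12.67 in OB-TUDCA, with a higher mean for 3 of the 6 markers and a lower mean for the other 3. The mean over 4 cholangiocyte markers was 4.68 to 4.91 in OB-control and 5.0 to 5.23 in OB-TUDCA, and over 5 stellate cell markers it was 7.04 to 7.17 and 7.19 to 7.30. Neither pair of ranges overlapped, no gene of these marker lists passed the threshold in that comparison, and the part of cell makeup in the results was not tested.

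Tat commits tyrosine to breakdown. Its log2 signal was 12.77, 13.03 and 12.67 in N-control, 12.39, 12.82 and 12.43 in OB-control, and 12.76, 12.47 and 12.58 in OB-TUDCA. The group means were 12.83 ± 0.19, 12.55 ± 0.24 and 12.60 ± 0.14 (SD, n = 3). The arrays of the groups overlapped in every comparison, and no order of the groups stood out beyond the spread. The difference of OB-control from N-control was -0.28 (95% interval -0.59 to 0.04, adjusted p = 0.481 in limma), and it was -0.17 without N-control replicate 2. The difference of OB-TUDCA from OB-control was 0.06 (-0.26 to 0.37, adjusted p = 0.915).

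Hpd makes homogentisate, the compound that accumulates in alkaptonuria. Its signal was 12.51, 12.58 and 12.62 in N-control, 12.49, 12.70 and 12.29 in OB-control, and 12.50, 12.21 and 11.99 in OB-TUDCA. The N-control arrays lay close together (mean 12.57 ± 0.06, SD, n = 3), while both ob/ob groups were wider (12.49 ± 0.20 and 12.23 ± 0.25). All 3 OB-TUDCA arrays were below the 3 N-control arrays, the nearest of them by a small margin, and they overlapped the OB-control arrays. OB-TUDCA differed from N-control by -0.34 (95% interval -0.65 to -0.03, unadjusted p = 0.0371 and adjusted p = 0.235 in limma) and from OB-control by -0.26 (-0.57 to 0.05, adjusted p = 0.507). Single arrays weighed on both values. The difference from OB-control was -0.16 without OB-control replicate 2, -0.14 without OB-TUDCA replicate 3 and -0.39 without OB-TUDCA replicate 1, and that from N-control was -0.22 without OB-TUDCA replicate 3.

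Hgd opens the ring of homogentisate. Its signal was 11.81, 11.92 and 11.75 in N-control, 11.79, 12.08 and 11.54 in OB-control, and 11.60, 11.21 and 10.99 in OB-TUDCA. It had the widest span of the 5 genes over the 9 arrays, 1.09 log2 units, and OB-TUDCA replicate 1 lay above OB-control replicate 3. OB-TUDCA differed from OB-control by -0.54, the largest difference of the 5 genes in that comparison (SE 0.17, 95% interval -0.92 to -0.16), with an unadjusted p of 0.0105 and an adjusted p of 0.224 in limma. Against N-control, where the arrays did not overlap, the difference was -0.56 (SE 0.17, adjusted p = 0.117). Without OB-TUDCA replicate 1 that difference became -0.73 and passed the threshold (adjusted p = 0.0412 in limma), the only 1 of the 9 such fits to do so. Over these 9 fits it ran from -0.73 to -0.43, with an adjusted p of up to 0.280. Of 10 other settings, 0 passed. The means of N-control and OB-control were 11.83 ± 0.09 and 11.81 ± 0.27 (SD, n = 3), a difference of -0.02 (95% interval -0.40 to 0.36).

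Gstz1 isomerizes maleylacetoacetate and also acts on the drug dichloroacetate. Its signal was 11.10, 11.20 and 11.22 in N-control, 11.23, 11.30 and 11.34 in OB-control, and 11.04, 11.07 and 10.84 in OB-TUDCA. The mean of Gstz1 alone among the 5 was above N-control in the OB-control mice, and the 3 groups did not overlap, with OB-control highest and OB-TUDCA lowest. The margins around N-control were small, 11.22 against 11.23 in OB-control and 11.10 against 11.07 in OB-TUDCA. Without overlap, 8.49% of all genes were higher in OB-control than in N-control. In OB-TUDCA, 6.53% were lower than in OB-control and 8.95% lower than in N-control. The share with the whole order was not computed. OB-TUDCA differed from OB-control by -0.30 (SE 0.08, 95% interval -0.49 to -0.12, unadjusted p = 0.00500, adjusted p = 0.165 in limma), a level 1.23-fold lower. OB-control differed from N-control by 0.11 (adjusted p = 0.647) and OB-TUDCA from N-control by -0.19 (adjusted p = 0.263), or -0.12 without OB-TUDCA replicate 3.

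Fah splits fumarylacetoacetate into the end products of the pathway. Its signal was 11.30, 11.24 and 11.32 in N-control, 11.14, 11.19 and 11.12 in OB-control, and 10.87, 10.71 and 10.70 in OB-TUDCA. All 3 groups were separate, in the order N-control, OB-control, OB-TUDCA from high to low, an order without overlap found in 0.597% of all genes. That share is for the order seen in Fah, and the share with separate groups in any order was not computed. The margin between N-control and OB-control was small, 11.24 against 11.19. From N-control to OB-TUDCA, Fah fell by 0.53 (SE 0.07, 95% interval -0.69 to -0.36), which is a 1.44-fold lower level, with an adjusted p of 0.00792 in limma. Without the acinar-rich N-control replicate 2 the difference was -0.55 (adjusted p = 0.0303 in limma). In a two-sample test on all arrays of only these groups, without the variance moderation of limma, the adjusted p was 0.167. The hepatocyte marker mean was 12.60 to 12.67 in N-control, overlapping OB-TUDCA, and 1 of its 6 genes, Hnf4a, was called higher in OB-TUDCA (0.58, adjusted p = 0.0451). Over 5 sinusoidal endothelial markers the mean was 7.28 to 7.39 in N-control and 7.49 to 7.55 in OB-TUDCA, with Lyve1 called higher (2.44, adjusted p = 0.0110) and Kdr lower (-1.17, adjusted p = 0.0218). Without N-control replicate 2 the adjusted p in limma was 0.132 for Hnf4a, 0.0570 for Kdr and 0.0481 for Lyve1. These calls held in 2, 4 and 8 of the 9 fits that left out 1 array, in the same order. The part of these markers in the Fah result was not tested. The difference from OB-control to OB-TUDCA was -0.39 (SE 0.07, 95% interval -0.56 to -0.22), 1.31-fold lower, and its adjusted p of 0.0660 missed the threshold. Leaving out OB-TUDCA replicate 1 gave -0.45 with an adjusted p of 0.0451 in limma, the only 1 of the 9 such fits that passed. Over these 9 fits the difference ran from -0.45 to -0.36 and the adjusted p up to 0.215. Of 10 other settings, 0 passed (adjusted p 0.0561 to 0.448). OB-control differed from N-control by -0.14 (adjusted p = 0.516), although the arrays of these groups did not overlap.

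**Figure D1:**
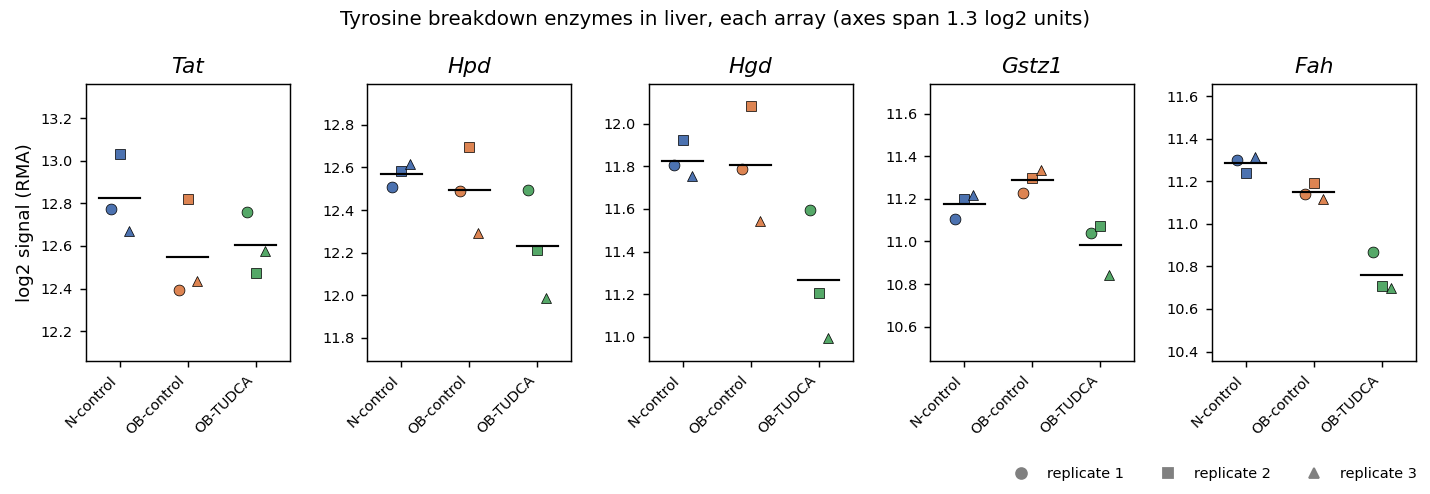
Log2 signal (vertical axis) of the 5 tyrosine breakdown enzymes by group (N-control, OB-control or OB-TUDCA), 1 point per array with the replicate number as its shape and a line at the group mean; every axis spans the same number of log2 units. The OB-TUDCA arrays of Fah lie between 10.70 and 10.87, below all other arrays of that gene, whereas the groups of Tat overlap.

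Fah and Gstz1 were the steadier genes and Hgd the least steady. The pooled SD within groups was 0.06 for Fah and 0.09 for Gstz1, and 7.06% and 16.7% of all genes had a smaller one. It was 0.24 for Hgd, with 88.7% of all genes below it, and 0.19 for both Tat and Hpd. The difference of Hgd from OB-control to OB-TUDCA was therefore larger than that of Fah, -0.54 against -0.39, but stood on a wider error.

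Set against all genes, the 5 enzymes showed the following. Between OB-control and N-control none was called and none had an unadjusted p under 0.05, while 0.456% of all genes were called higher and 0.492% lower, and 6.55% and 5.59% had an unadjusted p under 0.05 in these directions. In that comparison Gstz1 was higher and Fah lower without overlap of the arrays, as were 8.49% and 6.77% of all genes. Between OB-TUDCA and OB-control none of the 5 was called by limma (0.115% of all genes were called higher and 0.186% lower), and 3, Hgd, Gstz1 and Fah, had an unadjusted p under 0.05 and a lower mean (5.72% of all genes). Of the 5, Gstz1 and Fah were lower without overlap there (6.53% of all genes). The median difference of the 5 was -0.30 against 0.01 for all genes. By mean signal the 5 lie above 98.9% (Fah) to 99.9% (Tat) of all genes. In no comparison were they set against genes of like signal.

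Against N-control, all 5 enzymes had a lower mean in OB-TUDCA, with a median difference of -0.34 against 0.04 for all genes. Fah was called lower, as were 1.89% of all genes, and none was called higher, against 1.35% of all genes. An unadjusted p under 0.05 with a lower mean was found for 4, Hpd, Hgd, Gstz1 and Fah (8.15% of all genes), and the same 4 were lower without overlap of the arrays (8.95% of all genes). Without N-control replicate 2 the differences of OB-TUDCA from N-control were -0.12 for Tat, -0.33 for Hpd, -0.51 for Hgd, -0.18 for Gstz1 and -0.55 for Fah, and those of OB-control were -0.17, -0.07, 0.02, 0.13 and -0.16 in the same order. Fah from N-control to OB-TUDCA stayed the only one called. The 3 comparisons share arrays in pairs, so their values are not independent of each other.

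**Figure D2:**
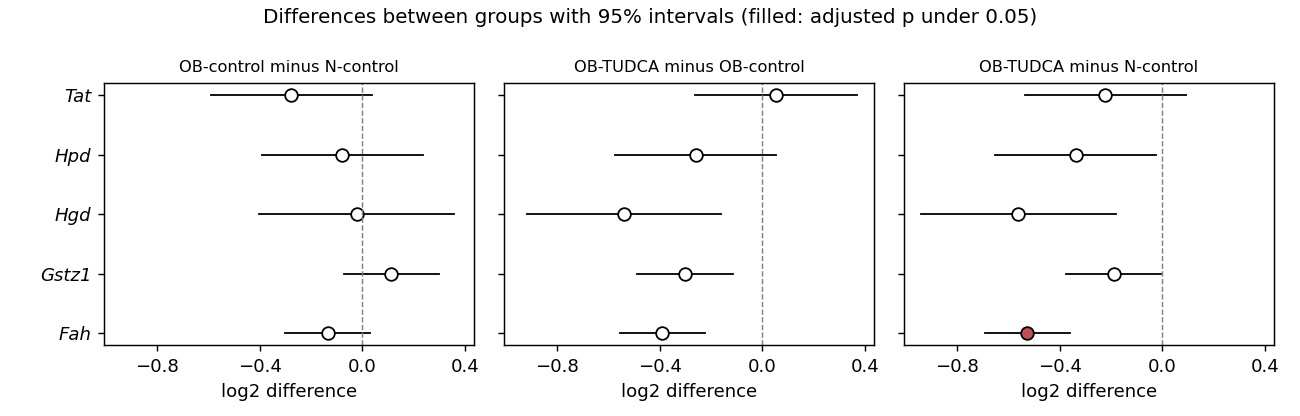
Log2 difference between group means (horizontal axis) for each enzyme in 3 comparisons, with lines for the unadjusted 95% interval in limma and a filled point where the adjusted p was under 0.05. Only the interval of Fah between OB-TUDCA and N-control, -0.69 to -0.36, carries a filled point, and the interval of Tat between OB-TUDCA and OB-control covers 0.

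Hpd and Hgd varied together from array to array. They had a Pearson r of 0.956 over the 9 arrays (exact permutation p = 9.65e-05, 0.000965 after Benjamini-Hochberg adjustment over the 10 pairs of enzymes, two-sided). Their Spearman rho was 0.867 (exact permutation p = 0.00451, adjusted 0.0413), and without OB-TUDCA replicates 2 and 3, the arrays farthest from the median of Hpd, r was 0.830. After the group means were subtracted, r remained 0.956, so the relation did not rest on differences between groups. The permutations moved arrays across groups, and the r around the group means was not tested. OB-control replicate 2 and OB-TUDCA replicate 1 were above their group means in both genes, and OB-control replicate 3 and OB-TUDCA replicate 3 below. An r this high was not particular to the pathway. Over the 9 arrays, Slc27a5 had an r of 0.975 with Hpd and Slc6a12 one of 0.988 with Hgd. The share of all genes with such an r was not computed.

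Tat was less closely tied to Hpd and Hgd than they were to each other. It had an r of 0.557 with Hpd (exact permutation p = 0.121, adjusted 0.172) and a rho of 0.700 (exact permutation p = 0.0433, adjusted 0.108), and r was 0.728 without N-control replicate 2 and OB-control replicate 1. With Hgd, its r was 0.531 (exact permutation p = 0.144, adjusted 0.180), its rho 0.650 (exact permutation p = 0.0666, adjusted 0.133) and its r 0.696 without the same arrays. Around the group means, r was 0.582 for Tat and Hpd and 0.743 for Tat and Hgd, against 0.755 for Hgd and Fah. For pairs with Gstz1 or Fah r was read only around the group means, since the OB-TUDCA arrays of both genes lie apart from the others. Around the group means, the r values of all 10 pairs were positive, from 0.116 for Tat and Gstz1 to 0.956 for Hpd and Hgd. All 5 genes were above their group mean in OB-control replicate 2 and in OB-TUDCA replicate 1, and all 5 below it in OB-control replicate 1 and in OB-TUDCA replicate 3. OB-TUDCA replicate 3 was the lowest of all 9 arrays for 4 of the 5, all except Tat.

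**Figure D3:**
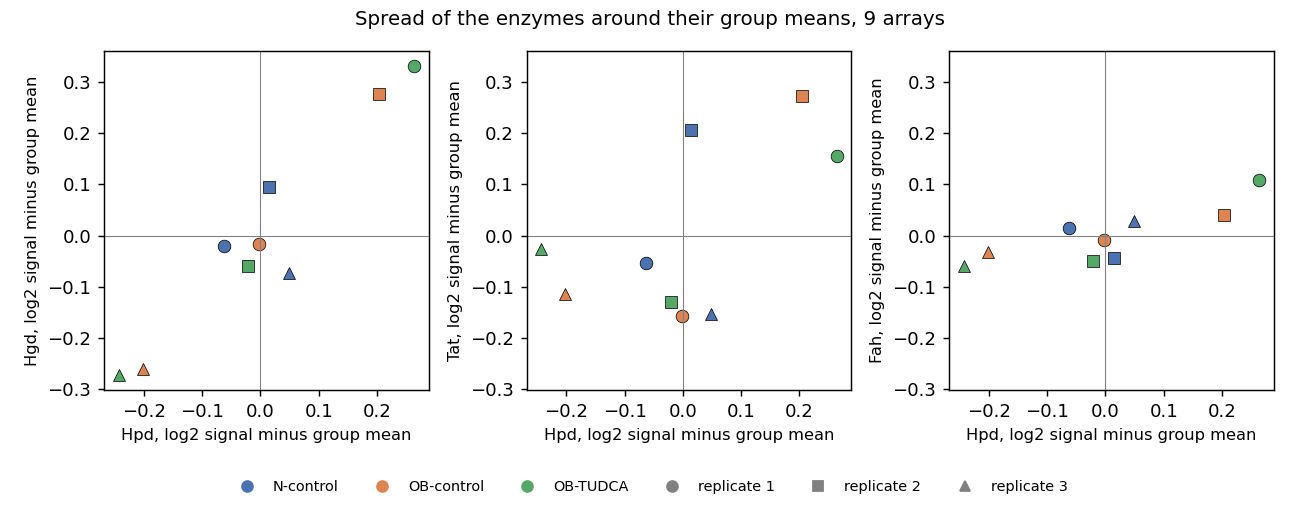
Log2 signal minus the group mean for Hgd, Tat and Fah (vertical axes) against Hpd (horizontal axes), 1 point per array, with the group as colour and the replicate as shape. Hgd follows Hpd most closely (r = 0.956 around the group means), and Tat follows it least of the 3 genes (r = 0.582).

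Genes outside the pathway were ranked by their r with each enzyme over the 9 arrays, among 4504 genes with a mean log2 signal of at least 7. These r values include the differences between groups and are given as a description. Closest to Tat were Snrpd2 (0.927), Rnf139 (0.912) and Pim3 (0.905). Closest to Hpd were Slc27a5, which activates bile acids before they are conjugated (0.975), Dbt of the branched-chain ketoacid dehydrogenase (0.970) and Fam136a (0.967). Hgd was followed by the betaine transporter Slc6a12 (0.988), Pecr (0.977) and Naa35 (0.973). Gstz1 was followed by Ndufs3 of respiratory complex I (0.946), Agxt2 (0.943) and Mccc2, a subunit of an enzyme of leucine breakdown (0.939). Fah was followed by Hibch of valine breakdown (0.983), Mrpl1 (0.979) and Hsd3b3 (0.978).

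Genes around the pathway were examined by role. Of 8 listed genes for tetrahydrobiopterin, the cofactor of the aromatic amino acid hydroxylases, 7 were measured, and 2 were called lower in OB-TUDCA than in N-control. These were Gch1, the first enzyme of cofactor synthesis (-1.08, adjusted p = 0.00810 in limma), and Pcbd1, which helps regenerate the cofactor (-0.42, adjusted p = 0.0432). Without N-control replicate 2 the adjusted p was 0.0385 for Gch1 and 0.132 for Pcbd1. Between OB-TUDCA and OB-control all 7 had a lower mean and none passed, with differences of -0.80 for Gch1 and -0.45 for Pcbd1. Of 9 measured genes for other reactions of phenylalanine and tyrosine, none passed in any comparison. Their most strongly hybridizing members were the aspartate aminotransferase Got1 (0.03 between OB-TUDCA and OB-control) and the monoamine oxidase Maob (-0.44).

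Genes for supply, end products and regulation followed the same design. Of 6 transporters of aromatic amino acids, Slc3a2, the heavy chain shared by several amino acid exchangers, was called higher in OB-TUDCA than in N-control (1.07, adjusted p = 0.0228 in limma, 0.0713 without N-control replicate 2). None of the 6 measured genes listed for the further use of fumarate and acetoacetate passed. Between OB-TUDCA and OB-control the difference was -0.12 for the fumarase Fh1 and -0.31 for Mdh1, which acts on malate, the product of fumarase. The largest was 0.79 for Aacs, which uses acetoacetate (adjusted p = 0.575 in limma). Among 9 measured genes of fasting and glucocorticoid response, which bear on the known regulation of Tat, the glucocorticoid-induced Fkbp5 was called higher in OB-TUDCA than in N-control (2.61, adjusted p = 0.0101, 0.0450 without N-control replicate 2). The other 8 were not called, and 5 of the 9 had a lower mean, with a median of -0.17. Fkbp5 had a difference of 1.75 from OB-control (adjusted p = 0.101), where the median of the 9 was 0.08 and the difference of Tat 0.06. In that comparison 7 of the 9 had a higher mean and 2 a lower one, while 46.3% of all genes had a lower mean. After Fkbp5 the largest rises were 1.29 for Igfbp1 and 0.51 for Tsc22d3, and the lowest value was -0.63 for Ppargc1a, none of them called.

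Pathways for other amino acids were set beside the 5 enzymes. Between OB-TUDCA and OB-control the median difference was -0.51 over 7 genes of tryptophan breakdown, -0.49 over 8 measured genes of histidine breakdown and the urea cycle, and -0.30 over the 5 tyrosine enzymes. Of the tryptophan genes, the kynurenine hydroxylase Kmo was called lower (-0.55, adjusted p = 0.0295 in limma), a call that held in 1 of the 9 fits that left out 1 array, the one without OB-TUDCA replicate 1. Against N-control, Kmo (-0.45), Kynu (-0.80) and Haao (-0.48), which follow each other in the kynurenine pathway, were called lower in OB-TUDCA, beside Fah (-0.53). Without N-control replicate 2 the adjusted p was 0.0570 for Kmo, 0.0578 for Kynu and 0.107 for Haao. Of the histidine and urea cycle genes, Otc was called lower in OB-TUDCA than in N-control (-0.81, adjusted p = 0.0411), and Uroc1 was called higher in OB-control than in N-control (0.81, adjusted p = 0.0187). Without N-control replicate 2 the adjusted p was 0.111 for Otc and 0.0586 for Uroc1. The calls of Pcbd1, Haao and Otc held in 2, 3 and 1 of the 9 fits that left out 1 array, those of Slc3a2 and Kynu in 6, and those of Uroc1 and of Kmo against N-control in 5, while Gch1 and Fkbp5 were called in all 9. A difference between these lists and the tyrosine enzymes was not tested.

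**Figure D4:**
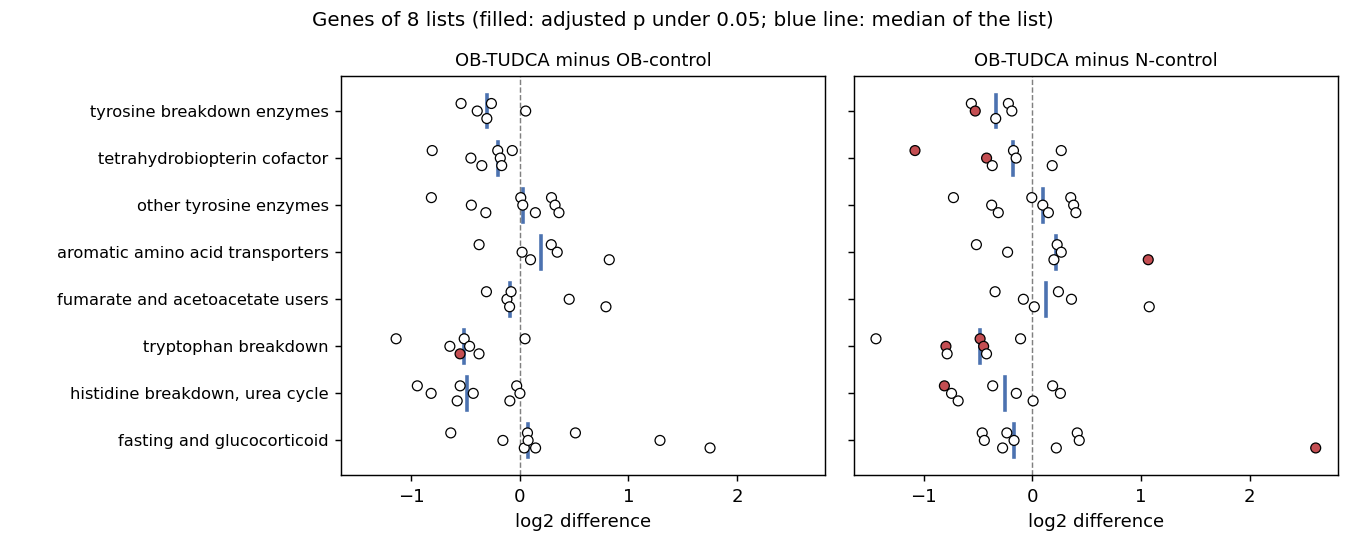
Log2 differences (horizontal axis) of the genes of 8 lists, 1 point per measured gene with a blue line at the list median, filled where the adjusted p was under 0.05 in limma; points are shifted vertically for visibility. Between OB-TUDCA and OB-control, Kmo of tryptophan breakdown is the only filled point, and the median of the tyrosine breakdown enzymes lies at -0.30.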

How the data were processed

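RNA from liver was measured on 9 arrays, 3 per group. The authors converted the scans to log2 signals with RMA in Affymetrix Expression Console, per the labels, and deposited 1 value per probe set and array; versions are not given in the sources used here. RMA corrects background, makes the distributions of the arrays alike and summarizes probes, so a shift shared by all genes cannot be seen. Array medians were 4.50 to 4.58. No read depth exists for arrays, and the number of arrays limits the precision.

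Of 35556 probe sets, 21789 had 1 symbol in the platform annotation, 1621 several and 12146 none listed; the first were averaged per symbol, giving 19938 genes with no filter on signal. A fit of 3 group means to all 9 arrays was made in R 4.3.3 with limma 3.58.1 (6 residual and 3.33 prior degrees of freedom) and Benjamini-Hochberg adjustment over all genes at 0.05. Figures used Python 3.11.15 and matplotlib 3.10.9. The members and lists were chosen with earlier results of these data known. All 5 members are described. From each list, called genes were named, at most 3, or else the 2 with the highest signal, and for each member the 3 genes with the highest r. Promoter sequences were taken from RefSeq, where all 5 members matched. Alternatives were a signal filter, 2 further normalizations, another variance prior, array weights, only the compared groups, single probe sets, a two-sample test without variance moderation, a replicate block and leaving out each array. The selection by SAM and fold-change that the study used for its arrays was not run here. A fit with the mean of the pancreatic acinar markers as covariate was added after seeing the data.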

Additional observations from a re-analysis of the deposited data

How the results depend on the processing

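Of 285 refits, 15 enzyme differences under 19 alternatives, 274 kept their direction and their side of the threshold. The difference itself was fixed in fits that changed only the error, the genes tested or the arrays of the group not compared. The count is therefore not a measure of robustness, and only Fah between OB-TUDCA and N-control began past the threshold. Fah between OB-TUDCA and N-control stayed past it in all 9 fits that left out 1 array (adjusted p 0.00732 to 0.0393) and in 9 of 10 other settings (0.00571 to 0.167). The exception was the two-sample test without variance moderation (the unmoderated test), which called 0 of the 5 enzymes there. Leaving out each array gave 1 to 2 enzymes called lower in that comparison and 0 to 1 between OB-TUDCA and OB-control, the higher counts both without OB-TUDCA replicate 1. Differences near 0 changed sign. Over the fits that left out 1 array, Hpd between OB-control and N-control ran from -0.18 to 0.023, above 0 without OB-control replicate 3. Hgd in that comparison ran from -0.16 to 0.11, above 0 without N-control replicate 2 or OB-control replicate 3, and was 0.055 after a second quantile normalization and 0.018 with the acinar marker mean as covariate. Tat between OB-TUDCA and OB-control ran from -0.024 to 0.19, below 0 without OB-control replicate 1, OB-control replicate 3 or OB-TUDCA replicate 1. The pooled r of Hpd and Gstz1, 0.660 over 9 arrays and not read above because OB-TUDCA arrays lie apart in Gstz1, became -0.10 without the 2 arrays farthest from the median of Hpd. The causes were not tested beyond the fewer arrays of these fits.

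The main fit did not pair arrays by replicate number. Deviations of same-numbered arrays correlated between -0.08 and 0.21, mostly above 0. Those of differently numbered arrays of different groups correlated between -0.30 and 0.23, mostly below 0. A shared effect of the replicate number was not tested. With a replicate block, Fah between OB-TUDCA and N-control kept a difference of -0.53 (adjusted p = 0.0158) and 1 enzyme was called lower there, while all genes called went from 269 higher and 377 lower to 430 and 441.

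Counts over all genes moved more. Between OB-TUDCA and OB-control, 23 genes were called higher and 37 lower, and 0 and 0 with only the 2 groups compared, by the unmoderated test, with the acinar covariate, or without N-control replicate 2, OB-control replicate 1, or OB-TUDCA replicate 2 or 3. Leaving out the dimmest genes, so that 13292 were tested, gave 50 and 81, and a second quantile normalization 45 and 52. Between OB-TUDCA and N-control the counts were 127 and 218 with only these groups, 121 and 207 with the acinar covariate, 0 and 0 by the unmoderated test, and down to 68 and 125 without OB-TUDCA replicate 2. Between OB-control and N-control, 91 and 98 became 170 and 188 with array weights, 25 and 40 with only these groups, 34 and 38 with the acinar covariate and 0 and 1 by the unmoderated test.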
